A study of Mus musculus with 3 samples.

Results

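The regions described here are 3 stretches of the mouse genome in which splenocyte small RNAs were mapped at many positions: chr11:101460001-101520000, chr1:72270001-72310000 and chr12:55790001-55840000, in the coordinates of the deposited read lists, counted from 1 and with the naming of the mm9 assembly. They were taken as 300 bins of 500 bp (120, 80 and 100 bins), of 185214 bins of that size with a read in any library. Of the 300 bins, 54 held a read. The regions were selected on their spleen read counts and left ends, so their level in spleen is a description and supports nothing. The spleen library came from unfractionated splenocytes of C57Bl6/J mice aged 10 weeks, immunoprecipitated with a rabbit polyclonal antibody against mouse MIWI2 (PIWIL4). The MEL library was made with the same antibody from mouse erythroleukemia cells, early erythroblasts transformed by Friend virus and kept as 1 established line (ATCC TIB-55). The testis library came from C57Bl6/J mice of 10 weeks without an antibody: total RNA was run on a gel and the band near 29 nt was taken. The libraries held 692011 (spleen), 823452 (MEL) and 1143785 (testis) mapped reads. Each group was 1 library, so differences have no replicate check, no test between groups was made, and the 95% intervals (exact Poisson for levels, exact Clopper-Pearson for shares) cover counting error only. An input or an immunoprecipitate with a control antibody was not analysed here, and cell types could not be checked by marker genes in these small RNA read lists.

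MIWI2 is a PIWI-family Argonaute protein of the male germ line, where it carries PIWI-interacting RNAs (piRNAs) into the nucleus and directs silencing of transposons. Most spleen and MEL reads of the 3 regions lay on other RNAs. U1 and U2 are small nuclear RNAs (snRNAs) of the spliceosome: U1 pairs with the 5′ splice site, and U2 pairs with the branch point of the intron. Both are made from many near-identical gene copies and both carry a uridine-rich Sm site on which a ring of Sm proteins is assembled.

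The identity of the copies was read from spacing. The read lists give no strand, sequence or gene, and the mouse gene annotation at hand (GENCODE M21) is on GRCm38, another build than the lists' naming. The 1383 annotated snRNA genes were therefore slid as a rigid set along each region, and the placement with most reads wholly inside genes was taken. On chr11, 4445 of 4540 reads of the 3 libraries (97.9%) fell inside 5 U2 genes at 1 placement. The best placement more than 1000 nt away held 1257, and the best placement of another chromosome's genes held 1646. On chr12, 1207 of 1220 reads (98.9%) fell inside 7 U1 genes at 1 placement. There the best placement more than 1000 nt away held 470, and another chromosome's genes held 443. On chr1, 1503 of 1513 reads (99.3%) fell inside 4 U2 genes, against 780 and 612, but 3 placements 1 nt apart held equally many. The one used shared most of its profile of spleen 5′ ends with chr11 (70.7%, against 39.9% and 27.6%) and was chosen after the values were seen. The likeness of the chr1 and chr11 positions below thus follows in part from that choice. Placements within 1000 nt were not in these comparisons, so they do not fix the positions to 1 nt. That rests on the few reads at the gene ends. In the chr11 copies 1 MEL read began at position 1, and 1 spleen and 1 MEL read ended at 191. In the chr12 copies 5 spleen reads began at position 1 and 20 ended at 164. The gene names rest on these spacings and on the RNA lengths of 191 nt (U2) and 164 nt (U1).

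The 2 RNAs are shown as their GENCODE M21 transcripts, since all results below are given as positions in them. Capitals mark the interval with most spleen reads, 94 to 120 in U2 (319 reads over the 5 chr11 copies) and 135 to 156 in U1 (39 reads over the 7 chr12 copies).
Rnu2-10 (U2): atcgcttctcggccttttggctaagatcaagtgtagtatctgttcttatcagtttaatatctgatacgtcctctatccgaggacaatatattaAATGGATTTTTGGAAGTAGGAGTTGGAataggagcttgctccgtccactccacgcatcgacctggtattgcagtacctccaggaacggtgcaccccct
Gm22634 (U1): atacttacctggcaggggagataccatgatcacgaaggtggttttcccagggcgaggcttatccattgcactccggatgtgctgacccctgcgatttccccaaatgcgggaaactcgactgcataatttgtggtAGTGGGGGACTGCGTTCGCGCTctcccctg

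Spleen reads did not spread evenly over the regions. In the chr11 region 3960 spleen reads lay in 6 of 120 bins, where an even spread would have put 33 in each bin. In the chr1 region 1361 reads lay in 7 of 80 bins, and in the chr12 region 1076 reads lay in 10 of 100 bins. The bins with at least 10 spleen reads numbered 5, 4 and 7, and they held 99.9%, 99.6% and 99.4% of the spleen reads of their regions. The smallest of these 16 bins held 62 spleen reads, and the largest of the others held 4. Each of the 16 bins held the reads of 1 snRNA gene copy (with the last copy of chr12 also reaching into the next bin), and 99.9% (chr11), 99.6% (chr1) and 99.8% (chr12) of the spleen reads lay wholly inside the copies. The bin from 101480001 to 101480500 on chr11, with 3 spleen reads on 1 left end, was the other occupied bin of that region.

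**Figure D1:**
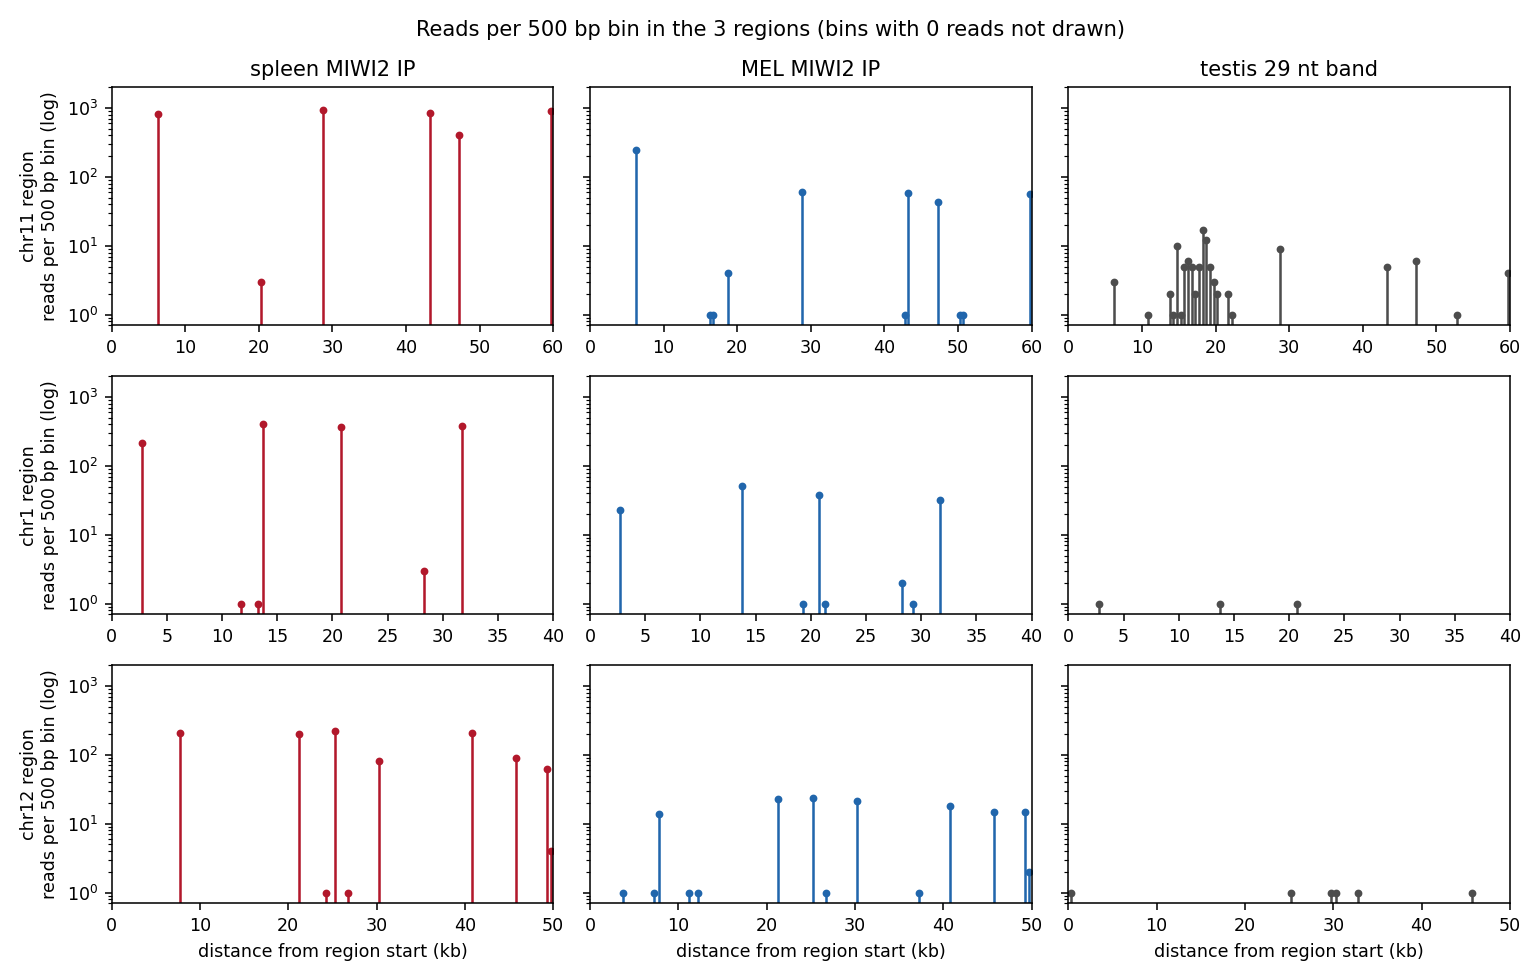
Reads per 500 bp bin (log axis) against the distance from the start of each region in kb, by library, with empty bins not drawn. Spleen reads stand in 5, 4 and 7 tall bins, MEL reads in the same bins at lower counts, and testis reads of the chr11 region mostly in a stretch between the first and second tall bin.

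Over the whole regions spleen had 5722 reads per 1000000 mapped reads (RPM; interval 5546 to 5904) on chr11, 1967 (1864 to 2074) on chr1 and 1555 (1463 to 1651) on chr12. MEL had 472 reads or 573 RPM (523 to 627) on chr11, 149 or 181 RPM (153 to 212) on chr1 and 138 or 168 RPM (141 to 198) on chr12. Spleen was therefore 9.98-fold, 10.9-fold and 9.28-fold above MEL on chr11, chr1 and chr12. Testis had 108 reads (94.4 RPM), 3 reads (2.62 RPM) and 6 reads (5.25 RPM). All 16 bins with at least 10 spleen reads were at least 4-fold higher in spleen than in MEL, as were 55.7% of all 4520 bins of the genome with that many spleen reads. The same 16 were at least 4-fold higher than in testis, as were 90.1% of the 4520. The regions were picked for their spleen reads, so nothing is read from these counts. Spleen levels depend on the shortest reads: scaled to reads of at least 18 nt, the chr11, chr1 and chr12 levels were 20544, 7168 and 4953 RPM.

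The 5 U2 copies of the chr11 region were alike in their total of spleen reads, apart from the one on the minus strand. Gm26316, at 101466164 to 101466354, had 826 spleen, 243 MEL and 3 testis reads. Gm23849, at 101488680 to 101488870, had 944, 61 and 9. Gm24950, at 101503062 to 101503252, had 858, 59 and 5. These 3 lie on the plus strand, as does Rnu2-10, at 101519552 to 101519742, which had 918, 57 and 4. The minus-strand copy Gm23971, at 101507054 to 101507244, had 411, 42 and 5. In MEL it was Gm26316 that stood apart, with 243 reads against 219 in the other 4 copies together.

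The 4 U2 copies of the chr1 region all lie on the plus strand and had fewer reads. Gm25360, at 72272814 to 72273004, had 213 spleen reads, 23 MEL reads and 1 testis read. Gm23472, at 72283520 to 72283710, had 400, 51 and 1, and Gm24497, at 72290787 to 72290977, had 364, 38 and 1. Gm25939, at 72301582 to 72301772, had 379, 32 and 0. Gm25360 was the lowest of the 4 in both immunoprecipitates. Its spleen level of 308 RPM (268 to 352) lay below that of the other 3, whose intervals together ran from 473 to 638 RPM.

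Among the 7 U1 copies of the chr12 region, strand again separated the spleen counts. The plus-strand copies had 207 (Gm22513), 200 (Gm22634), 221 (Gm23804) and 209 (Gm26444) spleen reads. The minus-strand copies had 80 (Gm25679), 91 (Gm24305) and 66 (Gm22317). The MEL counts of the same copies, in that order, were 14, 23, 24 and 17 on the plus strand and 20, 15 and 17 on the minus strand. The 2 strands did not overlap in spleen and overlapped in MEL.

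**Figure D2:**
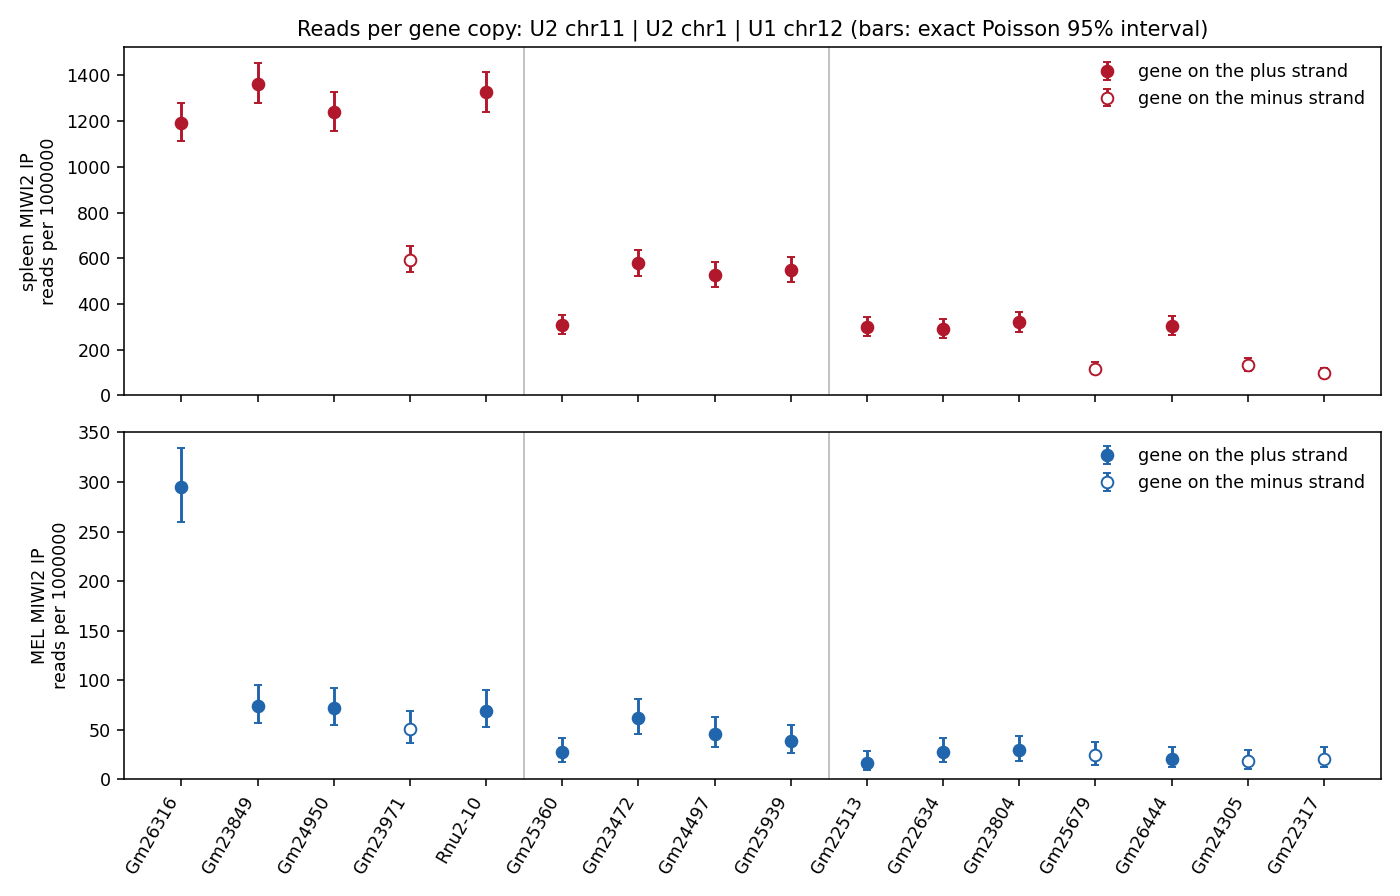
Reads per 1000000 mapped reads of the 16 gene copies in spleen (top) and MEL (bottom), with exact Poisson 95% intervals. Filled points are genes on the plus strand and open points genes on the minus strand, and Gm26316 is the high point in MEL.

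The strand difference could be read on copies with the same letters. Gm23849, Gm24950 and the minus-strand Gm23971 are identical to Rnu2-10, and 5 of the U1 copies are identical to the gene Rnu1a1. In spleen the 3 plus-strand U2 copies had a mean of 907 reads, 2.21 times the 411 of the minus-strand copy. The 3 identical plus-strand U1 copies had a mean of 210.0 spleen reads, 2.88 times the mean of 73 of the 2 minus-strand ones. In MEL the same ratios were 1.40 (59 against 42 reads) and 1.15 (21.3 against 18.5). A read from an identical sequence matches every such copy, and how such a read was placed is not given in the sources used here. Counts per copy are therefore counts of placed reads, not of transcripts of that gene. The 5 identical U1 copies, and Gm23472 of chr1, also share their letters with annotated genes outside the 3 regions. For each identical U2 copy of chr11 the 3 other annotated snRNA genes with the same letters lie in that region.

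Within the copies the spleen reads stacked at fixed ends. A stack was a left end with at least 10 reads of 1 library. The chr11 region had 71 spleen stacks with 88.5% (87.4 to 89.4) of its spleen reads, the chr1 region 37 stacks with 76.6% (74.2 to 78.8) and the chr12 region 24 stacks with 37.5% (34.6 to 40.4). In MEL the shares were 49.2%, 8.05% and 0%, and testis had no stack. The rule needs 10 reads, so the libraries' depth enters these shares: on chr12 the share was 66.0% with stacks of at least 5 reads and 15.4% with stacks of at least 20. A measure without that limit is the number of 5′ ends that held 50% of the reads. In U2 it was 4 of 191 positions in spleen on both chromosomes, and 4 in MEL on both. In U1 it was 7 of 164 positions in spleen and 10 in MEL.

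Stacks recurred at the distances between gene copies. On chr11, of 1981 pairs of stacks at least 500 nt apart, 57 were 14382 nt apart within 2 nt, more than at any other distance. That is the annotated distance between Gm23849 and Gm24950, and 15 pairs had it exactly. On chr1 the leading distance was 7267 nt with 26 of 506 pairs, the distance from Gm23472 to Gm24497. On chr12 it was 3910 nt with 8 of 219 pairs, the distance from Gm22634 to Gm23804. The leading distance changed with the stack limit because several pairs of genes gave similar counts: with stacks of at least 5 reads it was 30872 (Gm23849 to Rnu2-10), 28768 (Gm25360 to Gm25939) and 15384 nt (Gm23804 to Gm26444). Each of these is again an annotated distance between copies. In MEL the chr11 stacks gave at most 2 pairs at 1 distance, of 34 pairs.

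The left ends with most spleen reads were the same RNA position in different copies. On chr11 they were 101488773 (195 reads, Gm23849), 101519645 (194, Rnu2-10), 101503155 (186, Gm24950) and 101466257 (169, Gm26316), each at position 94 of U2. The fifth, 101466256 with 136 reads, was position 93 of Gm26316. MEL had 0, 1, 1, 0 and 1 reads at these 5 ends. On chr1 the leading ends were 72290880 (81 reads), 72283612 (72), 72283613 (71), 72290879 (70) and 72301674 (68), again positions 94 or 93. On chr12 the first 4, with 28, 28, 26 and 21 reads, were position 123 of U1 in 4 copies, and the fifth, with 21, was position 99. The minus-strand copies held the same positions in mirror image: Gm23971 had 85 spleen reads at position 94 and 42 at 93.

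The spleen and MEL libraries held different pieces of U2. Runs were taken as positions with at least 1% of the 5′ ends of either library, joined when at most 3 nt apart. The run from 85 to 104 held 80.7% (79.5 to 81.9) of the spleen reads in the chr11 copies and 64.7% (62.1 to 67.2) in the chr1 copies. In MEL it held 5.84% (3.89 to 8.39) and 4.17% (1.54 to 8.85). The run from 155 to 165 held 57.4% (52.7 to 61.9) and 49.3% (40.9 to 57.8) of the MEL reads, against 8.06% and 17.04% of the spleen reads. The run from 73 to 79 held 23.6% and 25% of the MEL reads, against 0.329% and 0.369% in spleen. The intervals of the 2 libraries did not overlap for any of these runs on either chromosome. The other runs were the single positions 19, 51 and 145. The intervals did not overlap at 19 or 51 and overlapped at 145, on both chromosomes. All runs were picked from the same reads, so the intervals describe the runs and support nothing. Much of the chr11 MEL share at 155 to 165 came from Gm26316. Without that copy the chr11 MEL reads were 31.1% at 155 to 165 and 38.8% at 73 to 79. At 85 to 104 they were then 9.59% (6.03 to 14.3). The 26 testis reads in the chr11 copies fell on 11 positions, 14 of them within 85 to 104.

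**Figure D3:**
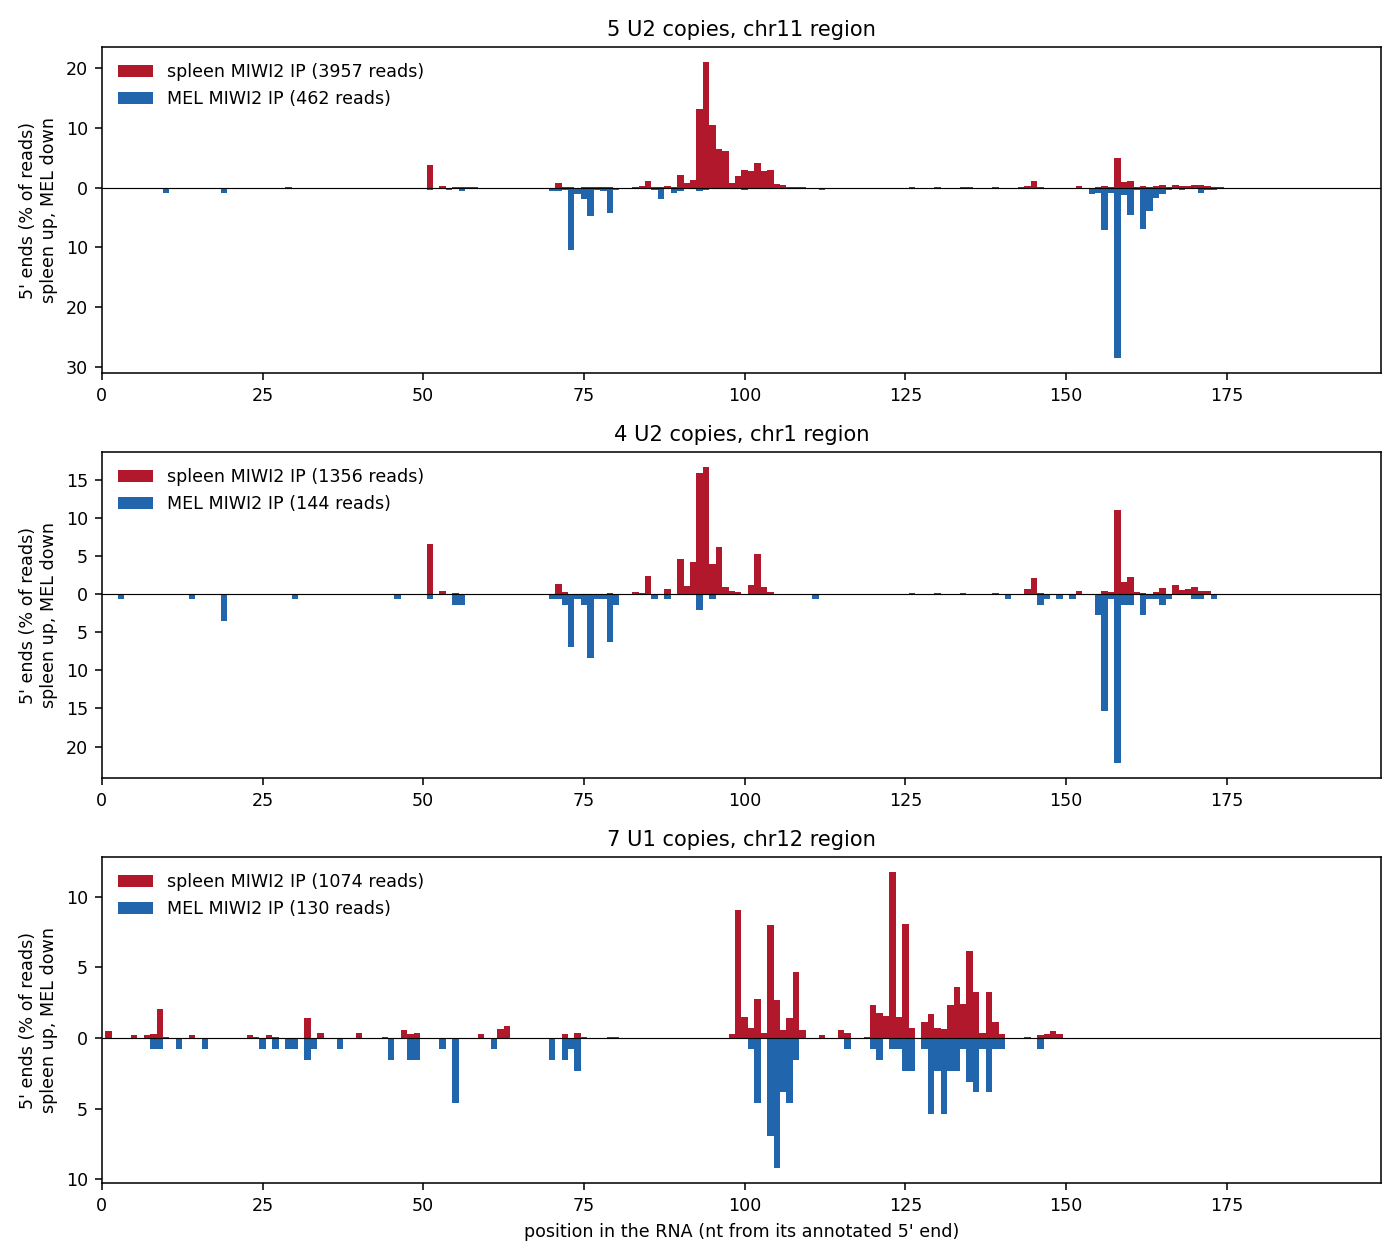
Share of reads (%) with their 5′ end at each position of U2 (chr11 and chr1 copies) and U1 (chr12 copies), counted from the annotated 5′ end of the RNA, with spleen drawn upward and MEL downward. Spleen stands highest at 94 in both U2 panels and MEL at 158 (in the chr11 panel mostly reads of Gm26316), while in the U1 panel spleen is highest at 123 and MEL at 105.

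Single positions carried much of this. Position 94 began 829 spleen reads on chr11 (21.0%) and 226 on chr1 (16.7%), where an even spread over the RNA would give 0.524% per position. The next on chr11 were 93, 95, 96 and 97, with 516, 416, 256 and 239 reads. In MEL the leading position was 158, with 132 reads (28.6%) on chr11 and 32 (22.2%) on chr1. It was followed on chr11 by 73 with 48 reads. Of the 132 reads 93 lay in Gm26316, and without that copy 158 had 39 of 219 MEL reads (17.8%) and 73 had 40 (18.3%). Spleen also had a separate end at 51, with 150 reads (3.79%) on chr11 and 89 (6.56%) on chr1, where MEL had 2 and 1.

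The other end of the reads was fixed as well. In spleen 73.7% of the chr11 reads and 58.4% of the chr1 reads had their 3′ end at 119 to 122, and 122 alone held 29.8% and 31.2%. MEL had 0.216% and 2.08% there. MEL reads ended at 96 to 98 in 21.2% and 25.7%, against 0.126% and 0.295% in spleen, and at 181 to 188 in 58.4% and 47.9%. Few reads reached the annotated end of the RNA at 191. In spleen 264 reads on chr11 ended at 187 or 188 and 1 at 189 to 191, and on chr1 the counts were 185 and 0. The first part of U2, which holds the branch-point pairing region, was almost unread in spleen. There 2 of 3957 spleen reads on chr11 and 1 of 1356 on chr1 began in the first 40 nt. In MEL 13 of 462 reads on chr11 (2.81%, 1.51 to 4.76) and 8 of 144 on chr1 (5.56%, 2.43 to 10.7) did.

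The letters atttttgg, a uridine-rich stretch of the Sm type, stand at 99 to 106 of U2. As ATTTTTGG they occur in 25 of the 1383 snRNA transcripts (1.81%), searched on the RNA strand. They were spanned whole by 65.3% (63.8 to 66.8) of the chr11 spleen reads and 57.2% (54.5 to 59.9) of the chr1 spleen reads. In MEL they were spanned by 4.98% (3.18 to 7.38) and 3.47% (1.14 to 7.92). In testis they were spanned by 12 of 26 reads on chr11, or 46.2% (26.6 to 66.6), an interval that overlaps that of spleen. In U1 the letters AATTTGTGG at 125 to 133, found in 65 of the 1383 transcripts (4.70%), were spanned by 28.7% (25.99 to 31.5) of the spleen reads and 7.69% (3.75 to 13.7) of the MEL reads. In both RNAs the share was higher in spleen than in MEL, and the match describes letters only, not a bound protein.

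U1 reads were less concentrated on leading 5′ ends than U2 reads: 7 positions held 50% of the spleen reads, against 4 in U2. Distinct spleen 5′ ends were not more in number, with 67 in U1 and 72 (chr11) and 61 (chr1) in U2. In spleen the leading 5′ ends were 123 (126 reads, 11.7%), 99 (97), 125 (87), 104 (86) and 135 (66), and each of the 5 occurred in all 7 copies. With runs of positions with at least 2% of either library, the run from 99 to 108 held 31.8% (29.0 to 34.6) of the spleen reads and 31.5% (23.7 to 40.3) of the MEL reads. The run from 120 to 138 held 53.4% (50.3 to 56.4) and 39.2% (30.8 to 48.2). MEL led at 105 with 12 reads and had 1 read at 123 and 0 at 99. Position 104 was among the 5 leading ends of both libraries, with 9 MEL reads. From 41 to 98 began 16.9% (10.9 to 24.5) in MEL against 4.28% (3.15 to 5.67) in spleen. The intervals of the 2 libraries overlapped for 99 to 108 and did not for 120 to 138 or 41 to 98. The other runs were the single positions 9, 55 and 74: the intervals overlapped at 9 and 74 and did not at 55. The stretch from 41 to 98 was not a run by the rule. It and the runs were picked from the same reads, so the intervals support nothing. Spleen 3′ ends at 141 to 145 made up 24.4%, against 3.08% in MEL, while 156 to 158 held 19.3% and 21.5%. The first 40 nt of U1, which include the letters that pair with the splice site, began 66 of 1074 spleen reads (6.15%, 4.78 to 7.75) and 12 of 130 MEL reads (9.23%, 4.86 to 15.6).

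Reads in the U2 copies were long for this spleen library. Of all spleen reads 59.9% were 15 to 17 nt, against 3.51% (2.96 to 4.13) in the chr11 region, 2.06% (1.37 to 2.96) in chr1 and 13.8% (11.8 to 16.1) in chr12. Counted once per distinct interval the first 2 were 11.8% and 6.76%. The range of 24 to 32 nt, which includes piRNA lengths, held 68.1% (66.6 to 69.5) of the chr11 spleen reads and 71.9% (69.5 to 74.3) on chr1, against 9.45% of the library. The most frequent lengths were 27 nt on chr11 and 29 nt on chr1. U1 reads differed: they were most often 22 nt, with 42.8% (39.8 to 45.8) at 20 to 23 nt and 29.0% (26.3 to 31.8) at 24 to 32 nt.

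MEL reads varied less between the regions, with most at 24 nt on chr11 and 26 nt on chr1 and chr12. Their share at 24 to 32 nt was 72.7%, 67.8% and 73.2%. Reads of 29 to 32 nt made up 8.26% on chr11 and 10.7% on chr1 in MEL, against 21.3% and 39.8% in spleen. The 108 testis reads of the chr11 region were most often 30 nt, a length set in part by the gel band.

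**Figure D4:**
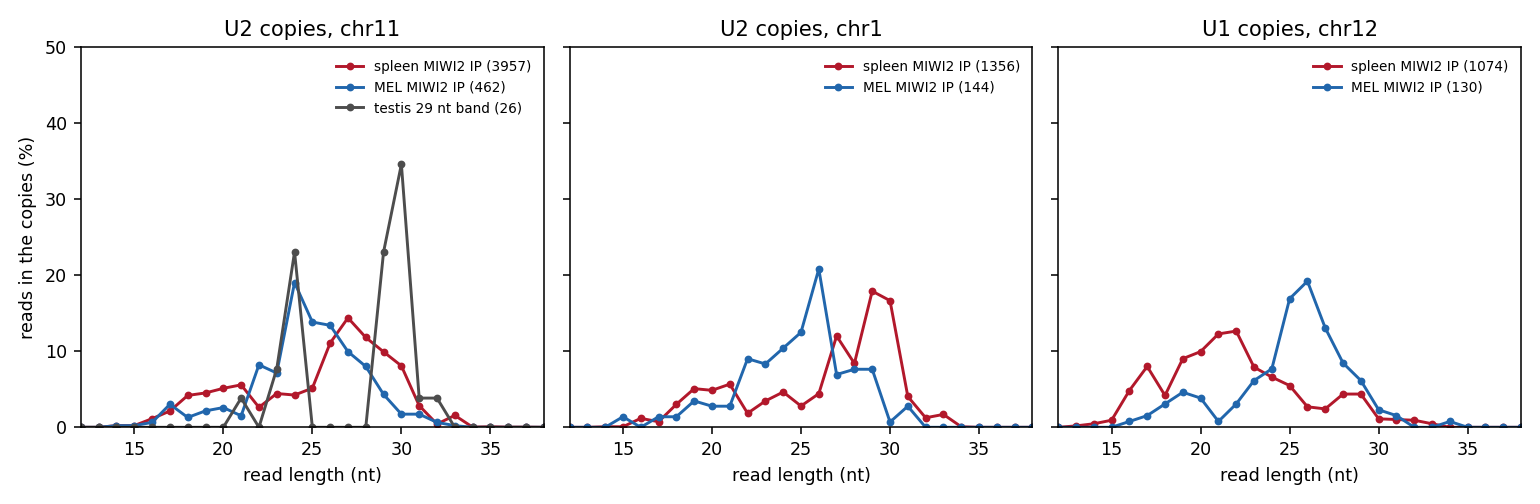
Share of reads (%) of each length in nt within the U2 copies of chr11 and chr1 and the U1 copies of chr12, with the number of reads in brackets and libraries under 20 reads not drawn. Spleen is highest at 27, 29 and 22 nt and MEL at 24, 26 and 26 nt, while the 26 testis reads are highest near 30 nt.

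Length went with the piece of the RNA. In the chr11 copies spleen reads were most often 21 nt from position 51, 27 nt from 85 to 104, 18 nt from 145 and 30 nt from 155 to 165. At the same 5′ end the libraries still differed. From position 158 of all 9 U2 copies, 348 spleen reads had a median of 30 nt and 72.1% (67.1 to 76.8) were at least 29 nt. From the same position 164 MEL reads had a median of 26.5 nt and 19.5% (13.7 to 26.4) were that long. Without Gm26316 the MEL values were 26 nt and 22.5% (13.5 to 34.0) of 71 reads.

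The copies differ in a few bases, and reads were counted over each such position. Positions are counted from 1 at the 5′ end of the RNA, with Rnu2-10 as the reference. Gm26316 carries C170T, and all 4 chr1 copies carry G109C. Gm25360 also carries C78T, A95G and C154T, Gm24497 also C186A, and Gm25939 also T69C and C78T. The 3′ stretch from 154 to 191 is shown for the copies that stood apart there, with positions 170 and 186 in capitals.
Rnu2-10: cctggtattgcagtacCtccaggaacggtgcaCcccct
Gm26316: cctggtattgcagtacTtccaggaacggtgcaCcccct
Gm24497: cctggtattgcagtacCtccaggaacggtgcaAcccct

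Over position 170 Gm26316 had the most reads of the 9 copies in MEL and the fewest in spleen. In MEL 200 of 355 reads over it lay in Gm26316, or 56.3% (51.0 to 61.6), and the other 8 copies had 15 to 25 each. In spleen 16 of 666 lay there, or 2.40% (1.38 to 3.87), and the other 8 copies had 25 to 102. At 5′ end 158 alone Gm26316 had 93 MEL reads and 1 spleen read, against 55 spleen reads and 13 MEL reads in Rnu2-10. Outside this stretch Gm26316 was read like its neighbours: over position 109 it had 733 spleen reads and Rnu2-10 had 739. The 21 letters around C170T occur in 1 of the 1383 snRNA transcripts, so within that set they point to this copy. The read lists hold no letters, so whether the reads carry the base was not tested. Counted once per distinct interval the MEL share was 32.1%.

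**Figure D5:**
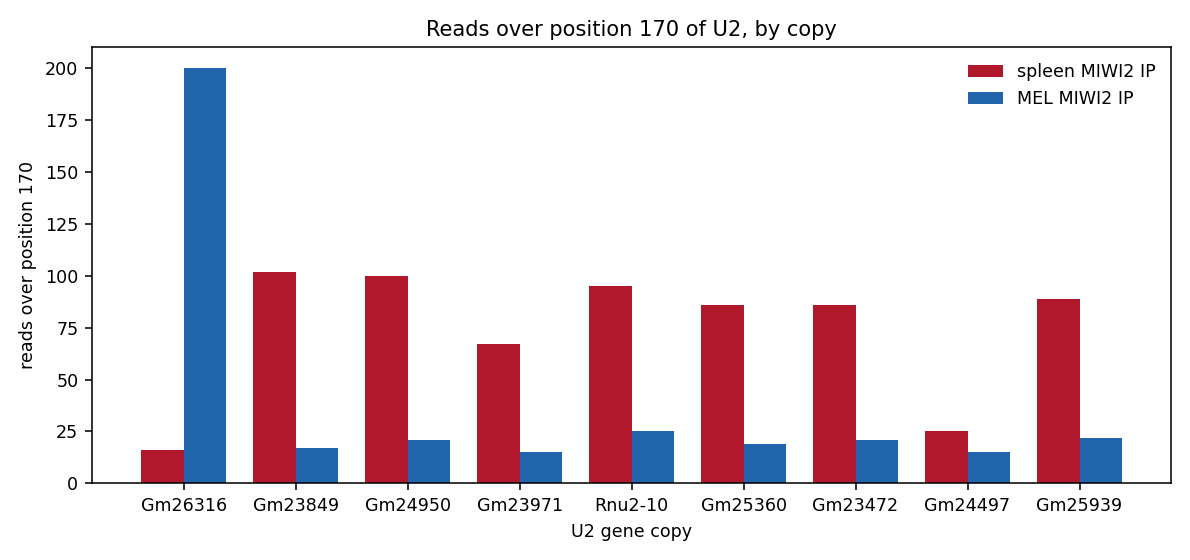
Number of reads over position 170 of U2 in each of the 9 copies, for spleen and MEL. Gm26316, the copy with C170T, has 200 MEL and 16 spleen reads, while the other 8 have 15 to 25 MEL and 25 to 102 spleen reads.

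Gm24497, with C186A, was low in spleen at the same end of the RNA. It had 5 spleen reads over position 186, where Gm25360, Gm23472 and Gm25939 had 70, 67 and 75, and 0 MEL reads, where they had 5, 7 and 9. Elsewhere at that end its MEL counts were closer to theirs. It had 15 MEL reads over position 170, where they had 19, 21 and 22. At 5′ end 158 it had 7 MEL reads, where they had 5, 8 and 12. Over position 109 it had 263 spleen reads, the most of the chr1 copies.

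The stretch with most spleen reads differs between the chr11 and chr1 copies at position 109, and in Gm25360 also at 95. It is shown from 91 to 122 with those 2 positions in capitals, for a copy of each kind.
Rnu2-10: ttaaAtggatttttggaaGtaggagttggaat
Gm23472: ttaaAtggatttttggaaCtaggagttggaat
Gm25360: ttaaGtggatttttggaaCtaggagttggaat

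Of 4046 spleen reads over position 109, 3205 (79.2%) lay in the 5 copies with G and 841 in the 4 with C. Among reads that began in the run from 85 to 104 and passed position 109, those of the chr11 copies were most often 27 nt, with 21.9% (20.5 to 23.4) of at least 29 nt (n = 3147). Those of the chr1 copies were most often 29 nt, with 49.9% (46.4 to 53.3) of at least 29 nt (n = 838). Position 93 began 16.4% of the former and 25.7% of the latter, and position 94 began 26.3% and 26.97%. The 2 sets of copies thus differed in read length. The chr1 placement was chosen for its likeness to chr11 in spleen 5′ ends, so nothing is read from the likeness at 94. Other ends differed both ways: of all spleen reads in the copies, position 95 began 10.5% on chr11 and 3.91% on chr1. Position 90 began 2.02% and 4.57%. Gm25360 had 5 and 6 spleen reads at 93 and 94, where the other 3 chr1 copies had 68 to 72 and 68 to 81. At 158 it had 46 reads, where Gm23472 had 45, Gm25939 had 47 and Gm24497 had 12.

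Left ends were compared between the libraries over the 300 bins. Of 671 spleen left ends 145 (21.6%) were also MEL left ends, which is 46.3% of the 313 MEL left ends. Among ends with at least 2 reads the shares were 7.99% and 38.1%. Of the spleen left ends 11 (1.64%) were testis left ends, of which testis had 88. Outside the copies testis held most of its reads in 1 stretch of the chr11 region: 80 reads on 58 left ends between 101470868 and 101482376, of which 65 (81.2%, 71.0 to 89.1) were 29 to 32 nt. In that stretch, between the first and second U2 copy, spleen had 3 reads and MEL 6, with 0 of that length in either. Testis reads there were spread over many ends, with at most 8 on one, unlike the spleen reads of the copies.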

How the data were processed

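Per the submitters' processing notes, Bowtie 0.12.7 mapped the small RNA reads of the 3 libraries. The deposited files list 1 read per line by chromosome, start and end, in no other unit; the sources used here do not give mapping options, build, or where a read with several matches was put. Left ends were assigned to bins, and interval width was taken as read length. Levels were scaled to 1000000 mapped reads. Python 3.11.15, numpy 2.4.6, pandas 2.3.3, scipy 1.17.1 and matplotlib 3.10.9 were used. Spacing and placement were tested on simulated stacks.

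Members and lists were chosen with earlier results of these data known. Bins and ends named are, per region, the 5 with most spleen reads and the first of MEL and testis, with examples given. Gene names, from annotation of another build through spacing, and all positions within U1 and U2 were added after values were seen, as were the runs, the single-base comparisons and their alternatives. Sequences are GENCODE M21 transcripts. GRCm38 gene coordinates were moved by a fixed offset for each region before reads were assigned to copies, and none was joined to the reads unmoved.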

Additional observations from a re-analysis of the deposited data

How the results depend on the processing

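Of 72 recomputed values of 25 results, 40 stayed within counting error (or 1.5 times for counts) and 32 moved. No paired analysis was possible because each group had 1 library. Values are in the order chr11, chr1, chr12. Spleen levels were 7472, 3667 and 6214 RPM by distinct interval and 20544, 7168 and 4953 RPM for reads of at least 18 nt. The share on stacks was 92.98%, 86.3% and 66.0% with at least 5 reads, 82.9%, 56.3% and 15.4% with at least 20, and 85.0% on chr11 by right ends. The leading distance was 30872, 28768 and 15384 nt with at least 5 reads, 18062 nt on chr1 with at least 20, and 16490, 18062 and 15384 nt by right ends. The 15 to 17 nt share by distinct interval was 11.8% and 6.76% on chr11 and chr1. Left ends with at least 2 reads gave 7.99% of spleen in MEL, 38.1% of MEL in spleen and 0.648% of spleen in testis, and right ends gave 52.3% of MEL in spleen. The share of spleen U2 reads from 85 to 104 was 57.0% and 43.7% by distinct interval, and 81.9% on chr11 for reads of at least 18 nt. On chr1 it was 64.6% and 63.9% with the copies moved 1 and 2 nt to the left of the placement used. Those are not the 2 other placements with equally many reads, at which the share was not recomputed. The share over position 170 in Gm26316 was 32.1% in MEL by distinct interval and 4.72% in spleen without the leading 5′ end. The share of chr11 MEL U2 reads that began at 158 was 17.8% without Gm26316. The occupied bins and the 16 bins higher in spleen stayed within 1.5 times under every setting run. MEL and testis had few reads on chr1 and chr12, which limits every share given there.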
